A study of Rattus norvegicus with 15 samples.

Results

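The muscle miRNAs miR-1, miR-133a, miR-133b and miR-206 were followed in rat hearts across diabetes with and without a glucose swing. They were taken as every array miRNA named rno-miR-1, rno-miR-133a, rno-miR-133b or rno-miR-206, which gave 4 of 350 rat miRNAs and 8 of 938 probes, read on 79 of 7000 spots per array. All 4 names were found. The series asked how the cardiac miRNA profile of diabetes with plasma glucose fluctuation differs from that of diabetes with steadily high glucose.

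RNA came from hearts of male Sprague-Dawley rats in 3 groups of 5 arrays each. GF hearts came from rats with diabetes, brought about by streptozotocin (STZ, 60 mg/kg, given once by tail vein), in which starvation for 24 h and insulin at 0.5 IU/kg into the peritoneum made the glucose swing. DM hearts came from rats with the same STZ diabetes, assigned once plasma glucose was above 300 mg/dL, with no starvation or insulin named for them. The same threshold of 300 mg/dL is given for the GF rats. Veh hearts came from control rats exposed to vehicle. Streptozotocin destroys the insulin-producing beta cells of the pancreas, so these rats model a lack of insulin. GF and DM share STZ, while GF alone had both the fast and the insulin, whose effects cannot be told apart here. The rats' age and the interval between insulin and tissue collection are not given in the sources used here, nor is it said that each array held a separate animal. The p-values below therefore measure the spread between these samples, which may in part be technical.

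MicroRNAs (miRNAs) are short RNAs that bring a silencing complex to messenger RNAs, mainly by pairing through the seed, the stretch of bases that follows the first base. miR-1, miR-133 and miR-206 are the classical muscle miRNAs: their genes are driven by muscle transcription factors, and the miRNAs act on the growth, differentiation and excitability of muscle cells. miR-1 and miR-133a are abundant in the heart, where loss of either in mice disturbs cardiac development or rhythm. miR-206 and miR-133b are best known from skeletal muscle and its regeneration.

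The mature sequences are shown because the members fall into 2 pairs that the array has to tell apart by few bases. They are the RefSeq 3p arms on the rat build GRCr8, matched by name for 4 of 4 members, and capitals mark the seed, bases 2 to 8.
rno-miR-1: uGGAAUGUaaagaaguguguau
rno-miR-206: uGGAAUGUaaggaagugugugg
rno-miR-133a: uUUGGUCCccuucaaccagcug
rno-miR-133b: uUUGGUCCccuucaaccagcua

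rno-miR-1 and rno-miR-206 share one seed, and rno-miR-133a and rno-miR-133b share the other. Counted from 1 at the 5′ end, rno-miR-133b differs from rno-miR-133a by 1 substitution in 22 bases, G22A. rno-miR-206 differs from rno-miR-1 by 3, which are A11G, A21G and U22G. RefSeq holds 1 further mature rat miRNA that carries a seed of the 4, rno-miR-1b, with the miR-1 seed. It differs from rno-miR-1 by 1 substitution, G17A, and no probe of the array is named for it. The array files give no probe sequences, so signal that crosses between near-identical members cannot be separated, and the values for rno-miR-133a and rno-miR-133b, and for rno-miR-1 and rno-miR-1b, are uncertain to that extent.

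The loci used here for the 4 members lie in 2 clusters. Further loci that give the same mature sequence were not looked for. Mature miR-1 lies at chr18:2160339-2160360 and mature miR-133a at chr18:2157886-2157907, both on the minus strand. Their hairpins, Mir1 and Mir133a1, are 2368 bases apart and lie within the span of the protein-coding gene Mib1, an E3 ubiquitin ligase of Notch signalling. Mature miR-206 lies at chr9:30590747-30590768 and mature miR-133b at chr9:30594629-30594650, both on the plus strand. Their hairpins are 3801 bases apart within the span of the long non-coding RNA LOC120094648. RefSeq also annotates the miRNA genes Mir3571 and Mir3582 (synonym Mir133c) over the Mir1 and Mir133a1 hairpins. The table used here does not say which exons or introns hold the hairpins.

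Per array, 166 to 190 miRNAs were detected and the 75th percentile of the signal was 1749.5 to 3422.1. In 5 cases a pair of arrays of 1 group, one on each of 2 slides, differed by less than the error the scanner software states, with reduced chi-squares of 0.243 to 0.63 over 156 miRNAs. They joined GF 1 to GF 5, GF 2 to GF 4, DM 2 to DM 4, DM 3 to DM 5 and Veh 1 to Veh 3. Each pair was averaged and counted as 1 sample, which left 10 distinct samples: 3 GF, 3 DM and 4 Veh. The other 100 pairs ran from 1.07 to 7.7. Of these, 5 were pairs of 1 group at no more than 1.35, the highest value of arrays simulated from the stated error alone. Merging these too would leave 3 GF, 2 DM and 2 Veh samples, and values for that are given below. Also among the 100, DM replicate 1 and Veh replicate 5, of different groups, differed by 1.147. Values without those 2 samples are given below. By the array names, DM 1 and Veh 5 had the same position on the 2 slides. So had Veh 1 and 3, Veh 2 and 4, DM 2 and 4, and DM 3 and 5, but not the GF pairs. Signals were scaled to the 75th percentile of each array and are given as log2. Precision is limited by how few arrays there are.

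The heart label was checked against miRNAs that mark tissues. rno-miR-1, rno-miR-133a and rno-miR-133b were well above background on all 15 arrays, and rno-miR-208 and rno-miR-499, which lie within cardiac myosin heavy chain genes, passed the filter for testing. Liver miR-122 was not well above background. Of the 4 islet and neural miRNAs, miR-375 and miR-124 were not, while rno-miR-7a and rno-miR-9 passed the filter, with a summed scaled signal of 93.9 to 113 in GF hearts, 107 to 126 in DM hearts and 105 to 132 in Veh hearts. rno-miR-206 was not well above background on any of the 15 arrays.

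rno-miR-206 thus has only a bound in all 3 groups, and no fold is given for it. Its 2 probes, A_26_P00001467 and A_26_P00001468, had background-subtracted signals between −7.52 and 3.37 over the 15 arrays, with medians of −1.24 and −0.942. Of their 300 spots over all arrays, 1 was well above background. Its neighbour in the lncRNA, rno-miR-133b, was well above background in all 285 spots of its own 2 probes. The passenger strand rno-miR-1* was likewise well above background on 0 of 15 arrays.

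The other 3 members gave strong signal. The brighter probe of rno-miR-1 (A_26_P00001634) had 41890 to 76100 units before scaling and the dimmer one (A_26_P00001633) 25860 to 50250. The brighter probe of rno-miR-133b (A_26_P00001637) had 49360 to 95920 and the dimmer one (A_26_P00001636) 13380 to 26890. For rno-miR-133a the brighter probe (A_26_P00001350) had 1419 to 3557 and the dimmer one (A_26_P00001349) 77.3 to 198. Probes bind with different strength, so these ranges do not rank the amounts of the 3 miRNAs. Repeat spots of a probe had median coefficients of variation of 4.16% to 10.1% on an array. For the brighter rno-miR-133a probe the coefficient was 19.9% on Veh 1, 25.1% on Veh 3, 21.2% on DM 3 and 27.3% on DM 5. On the other arrays that probe had 2.63% to 9.48%. The software read spots too bright for the main scan from a second scan at lower gain and scaled them up. That was done for all spots of both rno-miR-1 probes and of the brighter rno-miR-133b probe on all 15 arrays. It was done for 54 of 150 spots of the dimmer rno-miR-133b probe and for 0 spots of rno-miR-133a. The slope that scaled them up was 18.2 to 19.2 on slide 1 and 19.2 to 19.4 on slide 2.

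Over the distinct samples the levels of each member stayed within a narrow range. rno-miR-1, which in mice restrains the growth of heart muscle and sets ion channel levels, had log2 signals of 15.83 (GF 1 and 5), 15.66 (GF 2 and 4) and 15.78 (GF 6) in GF hearts. In DM hearts it had 15.73 (DM 1), 15.72 (DM 2 and 4) and 15.84 (DM 3 and 5). In Veh hearts it had 16.05 (Veh 1 and 3), 15.60 (Veh 2), 16.09 (Veh 4) and 15.84 (Veh 5). The Veh hearts spanned both the lowest and the highest of the 10 values, and all 3 groups overlapped. The means were 15.76 ± 0.085 in GF hearts (SD, n = 3), 15.76 ± 0.066 in DM hearts (SD, n = 3) and 15.90 ± 0.226 in Veh hearts (SD, n = 4).

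rno-miR-133a, known in mice to limit cardiomyocyte proliferation and cardiac fibrosis, had log2 signals of 11.02, 10.90 and 10.99 in GF hearts, in the same order of samples. In DM hearts it had 10.84, 11.09 and 10.95. In Veh hearts it had 11.24, 11.12, 11.69 and 11.18. Every GF and every DM heart lay below every Veh heart, by a small margin at the nearest samples, and Veh 4 stood highest. The means were 10.97 ± 0.062 in GF hearts (SD, n = 3), 10.96 ± 0.125 in DM hearts (SD, n = 3) and 11.31 ± 0.258 in Veh hearts (SD, n = 4).

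rno-miR-133b, which shares its seed and so its predicted targets with rno-miR-133a, had log2 signals of 16.04, 15.77 and 15.89 in GF hearts. In DM hearts it had 15.96, 16.06 and 16.08. In Veh hearts it had 16.23, 15.97, 16.44 and 16.22. Veh 2 lay among the GF and DM hearts, and the other Veh hearts lay above all of them. The means were 15.90 ± 0.134 in GF hearts (SD, n = 3), 16.04 ± 0.063 in DM hearts (SD, n = 3) and 16.22 ± 0.191 in Veh hearts (SD, n = 4).

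**Figure D1:**
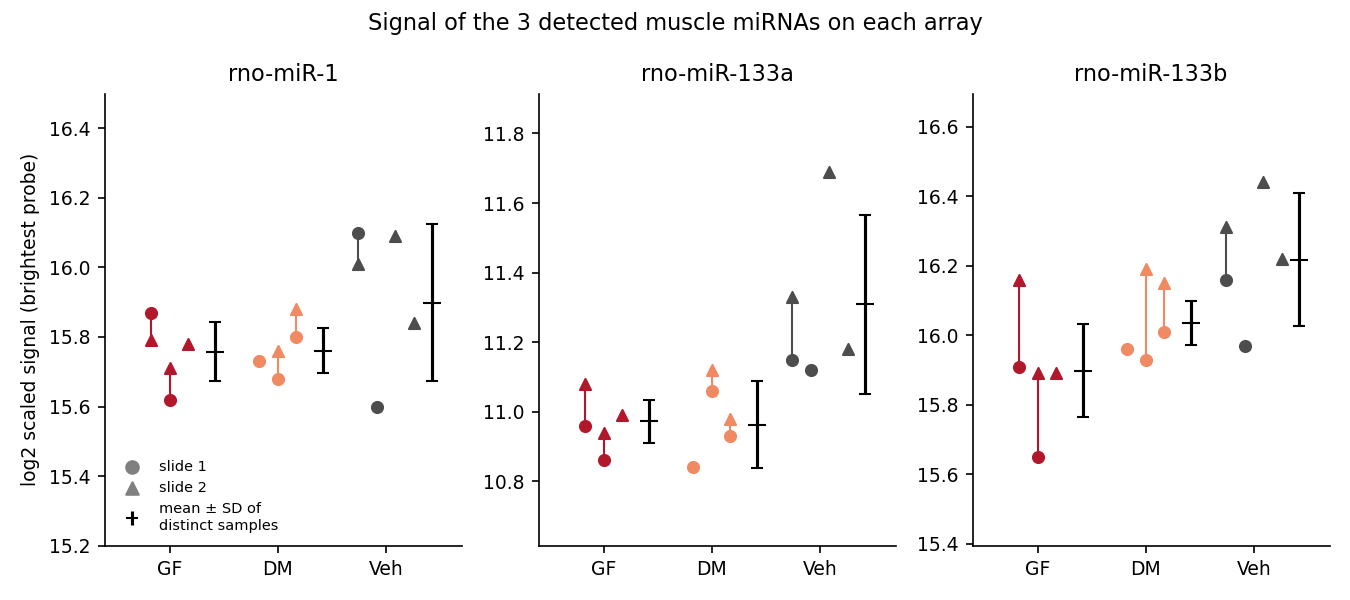
Log2 scaled signal of the brightest probe (y axis, each panel spanning the same range) of rno-miR-1, rno-miR-133a and rno-miR-133b on each array of the GF, DM and Veh groups (x axis); circles are slide 1, triangles slide 2, lines join the near-identical arrays counted as 1 sample, and black bars are the mean ± SD of distinct samples. For rno-miR-133a all 3 GF and all 3 DM samples lie below all 4 Veh samples, and for rno-miR-133b the slide 2 array of each joined pair is the higher one.

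GF was compared with Veh to ask what diabetes with the glucose swing shows against healthy hearts. The 3 tested members had lower means in GF hearts, and none passed the test over distinct samples (limma, two-sided, Benjamini-Hochberg over all 165 tested miRNAs, threshold 0.05). In that comparison 7.88% of all tested miRNAs passed, 13 in all, and 0 passed when Veh 1 and 3, Veh 2, Veh 4 or GF 2 and 4 was left out (29 to 47 at an unadjusted p under 0.05). For rno-miR-133b the GF minus Veh difference was −0.32 (SE 0.112, 95% interval −0.57 to −0.07, adjusted p = 0.091), a signal of 0.802 times that in Veh hearts. For rno-miR-133a it was −0.34 (SE 0.133, interval −0.63 to −0.04, adjusted p = 0.126), 0.793 times. For rno-miR-1 it was −0.14 (SE 0.118, interval −0.41 to 0.12, adjusted p = 0.473), 0.907 times. Single Veh samples carried much of these values: without Veh 4 they were −0.24 for rno-miR-133b, −0.21 for rno-miR-133a and −0.08 for rno-miR-1, and rno-miR-1 stood at −0.24 without Veh 2 and −0.09 without Veh 1 and 3. The groups did not overlap for 1 of the 3 members, rno-miR-133a, against 26.7% of all tested miRNAs. Before adjustment the limma p was 0.0182 for rno-miR-133b and 0.0313 for rno-miR-133a, and 51 of the 165 miRNAs had an unadjusted p under 0.05.

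The call for the miR-133 pair in this comparison depended on how the near-identical arrays were counted. With all 15 arrays taken as independent, rno-miR-133a (−0.33, adjusted p = 0.0179 by limma) and rno-miR-133b (−0.32, adjusted p = 0.0204 by limma) passed and rno-miR-1 did not (−0.18, adjusted p = 0.131 by limma). In that fit 36.4% of all miRNAs passed, and 23.6% passed with the lower value in GF hearts. With the further close pairs merged as well (3 GF, 2 DM and 2 Veh samples), the differences were −0.28 for rno-miR-133a, −0.32 for rno-miR-133b and −0.14 for rno-miR-1. None of the 3 passed there (adjusted p = 0.263, 0.263 and 0.499 by limma), nor did any of the 165 miRNAs, with 27 at an unadjusted p under 0.05. Over all alternatives the adjusted p ran from 0.0131 to 0.966 for rno-miR-133a and from 0.00595 to 1 for rno-miR-133b. Within slide 1 the differences were −0.11 for rno-miR-1, −0.23 for rno-miR-133a and −0.28 for rno-miR-133b, and within slide 2 they were −0.22, −0.39 and −0.34 in the same order. Without both Veh 5 and DM 1, an alternative chosen after seeing the data, they were −0.16, −0.38 and −0.32 and none passed.

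The values also rested on scaling. With no scaling between arrays the GF minus Veh differences were 0.18 for rno-miR-1, −0.01 for rno-miR-133a and 0.00 for rno-miR-133b, and the median of all 165 miRNAs moved to 0.24, against −0.06 with scaling. Scaled to the 75th percentile over all probes, the differences were −0.005 for rno-miR-1, −0.20 for rno-miR-133a and −0.18 for rno-miR-133b, with a median of 0.075 over all miRNAs. Quantile normalization gave 0 for rno-miR-1 and rno-miR-133b, whose probes held the same rank on every array. The 75th percentile of the signal averaged 2780 ± 529.3 in GF hearts (SD, n = 3), 2027 ± 255.8 in DM hearts (SD, n = 3) and 2205 ± 261.2 in Veh hearts (SD, n = 4). Its GF minus Veh difference had p = 0.171 and its GF minus DM difference p = 0.2 (two-sided exact permutation, smallest p possible 0.0286 and 0.1). The 3 members stood below the median of all miRNAs under both settings. The part of this brightness in the members' values was not tested.

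DM was compared with Veh to ask what STZ diabetes with lasting high glucose shows. STZ, the lack of insulin and high glucose go together in DM hearts and cannot be told apart. Again the means were lower in DM hearts and no member passed, nor did any of the 165 miRNAs (0% by limma over distinct samples, with 14 at an unadjusted p under 0.05). For rno-miR-133a the DM minus Veh difference was −0.35 (SE 0.133, interval −0.64 to −0.05, adjusted p = 0.468), 0.787 times, and it ranked 8th of 165 both by p and from the lowest difference. For rno-miR-133b it was −0.18 (SE 0.112, interval −0.43 to 0.07, adjusted p = 0.555), and for rno-miR-1 it was −0.14 (SE 0.118, interval −0.40 to 0.13, adjusted p = 0.663). Without Veh 4 these were −0.22 for rno-miR-133a, −0.11 for rno-miR-133b and −0.07 for rno-miR-1, and rno-miR-1 stood at −0.235 without Veh 2 and −0.09 without Veh 1 and 3. Scaled to hur control spots they were −0.20 for rno-miR-133a, −0.04 for rno-miR-133b and 0.01 for rno-miR-1, and with no scaling −0.47, −0.31 and −0.26 in the same order. Within slide 1 they were −0.19, −0.10 and −0.12, and within slide 2 −0.35, −0.16 and −0.16 in that order. The groups did not overlap for rno-miR-133a, 1 of 3 members, against 6.06% of all tested miRNAs. With 15 arrays as independent 1.82% of all miRNAs passed and no member did. Without both Veh 5 and DM 1 the differences were −0.14 for rno-miR-1, −0.33 for rno-miR-133a and −0.15 for rno-miR-133b.

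GF was compared with DM to ask what the glucose swing adds to diabetes. For rno-miR-1 the GF minus DM difference was 0.00 (SE 0.126, interval −0.29 to 0.28, adjusted p = 0.987 by limma), and for rno-miR-133a it was 0.01 (SE 0.142, interval −0.31 to 0.33, adjusted p = 0.987 by limma). For rno-miR-133b it was −0.14 (SE 0.12, interval −0.41 to 0.13, adjusted p = 0.679 by limma). The intervals leave room for changes in either direction, so they do not show that GF and DM hearts are alike. No member's groups were apart, against 14.5% of all tested miRNAs. None of the 165 miRNAs passed over distinct samples (0%, with 18 at an unadjusted p under 0.05), and 3.64% passed with 15 arrays as independent. With no scaling the differences were 0.44 for rno-miR-1, 0.46 for rno-miR-133a and 0.31 for rno-miR-133b, beside a median of 0.35 over all miRNAs. GF minus Veh and DM minus Veh share the Veh samples, so their like direction is not a second observation.

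**Figure D2:**
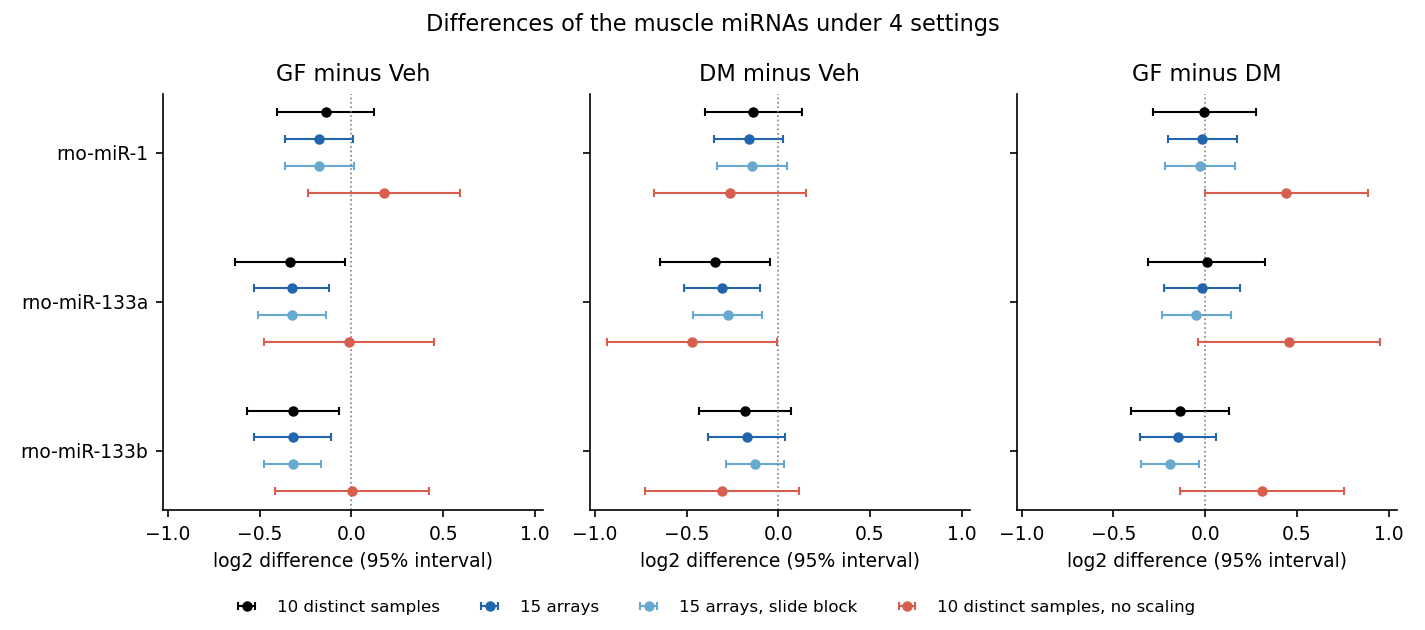
Log2 difference (x axis) of each detected member (y axis) for GF minus Veh, DM minus Veh and GF minus DM; points are estimates and bars their 95% intervals, for 10 distinct samples, for 15 arrays without and with slide as a block, and for distinct samples with no scaling. The points of rno-miR-133a and rno-miR-133b stand near −0.33 in GF minus Veh under the 3 scaled settings and near 0 with no scaling.

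Among all tested miRNAs the members were on the lower side in both comparisons with Veh. The median of the 3 was −0.32 in GF minus Veh, against −0.06 for all 165, whose quartiles were −0.27 and 0.09. In DM minus Veh it was −0.18, against 0.03, with quartiles of −0.07 and 0.12. In GF minus DM it was 0.00, against −0.08. In the authors' deposited tables, which list miRNAs by uncorrected tests, none of the 4 members appears among the 35 of the 3-group comparison or in its 3 pairwise lists. Of the 149 miRNAs in the authors' deposited table of log2 values, 3 are members, rno-miR-1, rno-miR-133a and rno-miR-133b; rno-miR-206 is not listed.

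**Figure D3:**
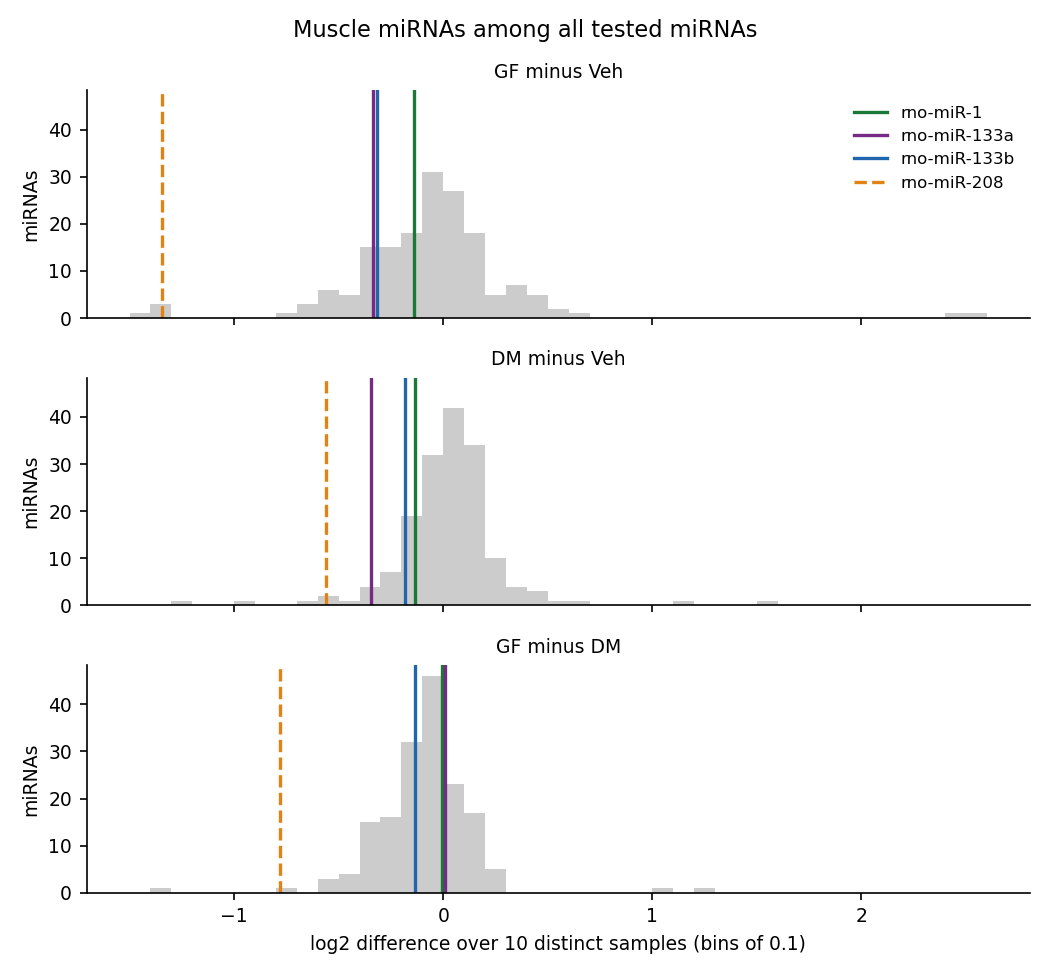
Histograms (bins of 0.1; y axis, number of miRNAs) of the log2 difference over distinct samples (x axis) for the 165 tested miRNAs in GF minus Veh, DM minus Veh and GF minus DM, with lines at rno-miR-1, rno-miR-133a, rno-miR-133b and, dashed, rno-miR-208. The 3 members lie between −0.35 and 0.01 in all 3 panels, rno-miR-133a being 8th from the lowest in DM minus Veh, and rno-miR-208 lies at −1.34 in GF minus Veh.

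The separate probes of a member gave like values, except for rno-miR-133a. In a fit over 300 probes, of which 8% passed in GF minus Veh, none of the 6 probes of the members passed. The dimmer rno-miR-133a probe had a GF minus Veh difference of −0.51 (SE 0.145, interval −0.84 to −0.19, adjusted p = 0.0516 by limma), while the brighter one had −0.34. The dimmer and brighter probes gave −0.14 and −0.14 for rno-miR-1 and −0.31 and −0.32 for rno-miR-133b. In DM minus Veh the dimmer and brighter probes gave −0.11 and −0.14 for rno-miR-1, −0.36 and −0.35 for rno-miR-133a, and −0.21 and −0.18 for rno-miR-133b. In GF minus DM those of rno-miR-133a gave −0.16 and 0.01, which differ in sign.

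Within the near-identical pairs, 1 array lay on each slide. The labels do not say whether the arrays of a pair held the same RNA. For rno-miR-133b the slide 2 array was the higher one in 5 of 5 pairs, by 0.13 to 0.25, and for rno-miR-133a in 5 of 5, by 0.05 to 0.18. For rno-miR-1 the difference ran from −0.09 to 0.09, with 3 pairs higher on slide 2. The SD of an array within pairs was 0.15 for rno-miR-133b, 0.0767 for rno-miR-133a and 0.0582 for rno-miR-1. These SDs include the steady difference between slides, so for rno-miR-133b the value is not noise alone. The SD of rno-miR-133b between GF samples was 0.134. It is not a like measure, since all GF samples but GF 6 were averaged over both slides. With the mean slide difference within the pairs taken out, an alternative chosen after seeing the data, GF minus Veh was −0.14 for rno-miR-1, −0.34 for rno-miR-133a and −0.33 for rno-miR-133b (adjusted p = 0.477, 0.101 and 0.0578 by limma).

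Ratios within a sample do not depend on how arrays are scaled to each other. Those of rno-miR-133a over rno-miR-1 or rno-miR-133b still carry each array's slope for the scan at lower gain. Of these 3, only rno-miR-133a had no spots from that scan. The slope averaged 19.21 ± 0.1504 in GF hearts (SD, n = 3), 18.78 ± 0.4906 in DM hearts (SD, n = 3) and 18.85 ± 0.4728 in Veh hearts (SD, n = 4). Its part in the ratios was not tested. Each ratio is of probe signals, so its change between groups is informative and its size is not a ratio of amounts. The log2 ratio of rno-miR-133b over rno-miR-1 was 0.21, 0.11 and 0.11 in GF hearts, 0.24, 0.34 and 0.24 in DM hearts, and 0.18, 0.37, 0.35 and 0.38 in Veh hearts. Over these averaged samples GF hearts lay below all DM hearts and overlapped the Veh hearts through Veh 1 and 3. Single arrays of GF and DM overlapped. GF 5 had 16.16 for rno-miR-133b and 15.79 for rno-miR-1, against 15.96 and 15.73 for DM 1. Within GF 1 and 5 the slide 2 minus slide 1 difference was 0.248 for rno-miR-133b and −0.077 for rno-miR-1. The ratio thus moved more between those 2 arrays than between the GF and DM means. The GF minus DM difference was −0.13 (p = 0.1, the smallest p possible, adjusted p = 0.3) and the GF minus Veh difference −0.18 (p = 0.0857, adjusted p = 0.3, two-sided exact permutation). The log2 ratio of rno-miR-133a over rno-miR-1 ran from −4.81 to −4.76 in GF hearts, from −4.88 to −4.63 in DM hearts and from −4.81 to −4.41 in Veh hearts. Its GF minus Veh difference was −0.19 and its DM minus Veh difference −0.21 (exact permutation p = 0.2 and 0.143). None of the 9 differences of the 3 ratios passed, and their adjusted p ran from 0.3 to 1 (exact permutation, Benjamini-Hochberg over the 9).

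The miRNAs within cardiac myosin genes were set beside the members. rno-miR-208, from the alpha myosin heavy chain gene, had log2 signals of 10.15, 10.09 and 10.48 in GF hearts, 11.32, 11.47 and 10.29 in DM hearts, and 11.84, 11.79, 11.61 and 11.10 in Veh hearts. It fell in GF against Veh, with a difference of −1.34 (SE 0.283, adjusted p = 0.0194 by limma), and its GF and Veh hearts did not overlap. That call was lost without Veh 1 and 3 (adjusted p = 0.0655), Veh 2 (0.0653), Veh 4 (0.0637) or GF 2 and 4 (0.107), and the adjusted p of limma ran from 0.000531 to 0.255 over all alternatives. rno-miR-499, from another myosin gene, had a GF minus Veh difference of −0.19 (SE 0.0959, adjusted p = 0.194 by limma). The log2 ratio of rno-miR-208 over rno-miR-1 averaged −5.52 ± 0.198 in GF hearts (SD, n = 3), −4.74 ± 0.709 in DM hearts (SD, n = 3) and −4.31 ± 0.398 in Veh hearts (SD, n = 4). Its GF minus Veh difference of −1.20 had exact permutation p = 0.0286, the smallest possible, with an adjusted p of 0.129 over the 9 ratio differences added after the value of rno-miR-208 was seen. Against rno-miR-133a the same difference was −1.01 (exact permutation p = 0.0286), and against rno-miR-133b it was −1.02 (exact permutation p = 0.0571).

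**Figure D4:**
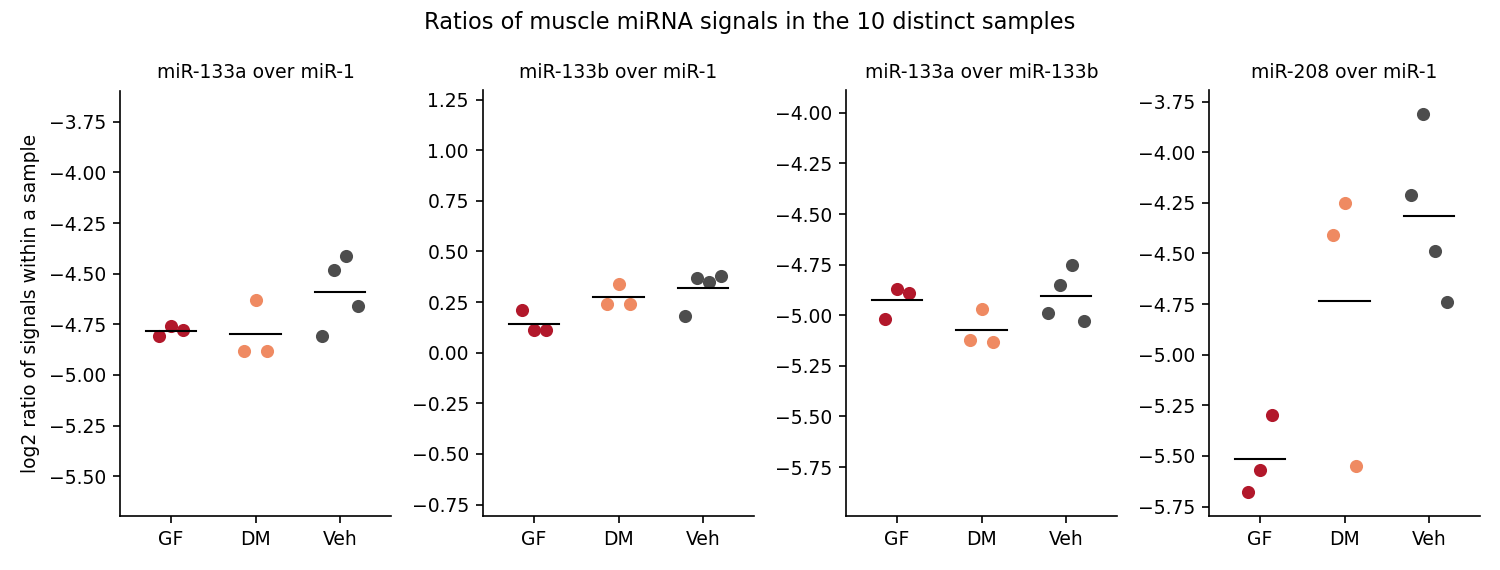
Log2 ratio of signals within a sample (y axis, all panels spanning the same range) for rno-miR-133a over rno-miR-1, rno-miR-133b over rno-miR-1, rno-miR-133a over rno-miR-133b and rno-miR-208 over rno-miR-1 in GF, DM and Veh hearts; points are the 10 distinct samples and lines the group means. The ratio of rno-miR-208 over rno-miR-1 is lower in all 3 GF samples than in all 4 Veh samples, and the ratios among the members differ by at most 0.21 between group means.

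The miRNAs whose pattern was most like each member were found by the root mean square difference of centred log2 profiles over the 10 distinct samples, among 164 other tested miRNAs. For rno-miR-1 these were rno-let-7b (0.09), rno-miR-499 (0.092) and rno-let-7a (0.093), and rno-miR-133b came 4th at 0.098. For rno-miR-133a they were rno-miR-126* (0.107), rno-miR-133b (0.114) and rno-let-7c (0.137), and its cluster neighbour rno-miR-1 came 6th at 0.155. For rno-miR-133b they were rno-miR-126* (0.077), rno-let-7c (0.08) and rno-let-7b (0.09). The median over all others was 0.208 for rno-miR-1, 0.276 for rno-miR-133a and 0.215 for rno-miR-133b. rno-miR-208 came 156th, 155th and 156th in the 3 orders. The profiles were centred but not brought to a common spread, so a miRNA with a wide range comes late whatever its shape. These likenesses are a description: the samples share arrays and scaling.

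Levels of miRNAs that mark other cell types stood beside these values as follows, in GF minus Veh by limma over distinct samples. Of the leukocyte list 2 of 5 tested miRNAs fell, rno-miR-142-5p (−0.64, adjusted p = 0.0367) and rno-miR-146a (−0.47, adjusted p = 0.0194). The others did not pass and did not go one way: rno-miR-142-3p had −0.48, rno-miR-150 −0.01 and rno-miR-223 0.51 (adjusted p = 0.0887, 0.966 and 0.0611). The summed scaled signal of the list was 4987 to 5694 in GF hearts and 6192 to 6486 in Veh hearts. Of the epithelial list 2 of 4 rose, rno-miR-141 (2.41, adjusted p = 0.0194) and rno-miR-200c (2.58, adjusted p = 0.0194). The other 2 were near 0, rno-miR-200a at 0.07 and rno-miR-200b at 0.02 (adjusted p = 0.824 and 0.96), while miR-429 was not well above background. The summed scaled signal of the epithelial list was 361 to 478 in GF hearts, 142 to 443 in DM hearts and 87.8 to 166 in Veh hearts. Each miRNA counts there for at least the floor of 19.72. No tested miRNA of the endothelial (3), red cell (2), fibroblast-rich (4) or smooth muscle (2) lists passed. Their median differences were −0.37, −0.35, −0.43 and 0.125 in that order, against −0.32 for the striated muscle list. The summed signal of the endothelial list was 15720 to 17070 in GF hearts and 19400 to 23890 in Veh hearts. For the red cell list it was 4591 to 5920 and 6132 to 7329. The groups overlapped for the fibroblast-rich (14270 to 18080 and 13980 to 17400) and smooth muscle (14170 to 18130 and 11660 to 18880) lists. The summed signal of the striated muscle list was 114600 to 132400 in GF hearts, 126300 to 135500 in DM hearts and 124000 to 170300 in Veh hearts. In heart tissue, fewer muscle cells and less of a miRNA per cell cannot be told apart, and the part of other cell types in the members' values was not tested.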

How the data were processed

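MiRNAs were measured in rat hearts on 15 one-colour Agilent arrays (Cy3, 100 ng of total RNA, per the labels' protocols). Per the file headers and the submitters' processing notes, the authors read them with Agilent Feature Extraction 9.5.3.1. The deposited array files hold background-subtracted intensity per spot, not scaled between arrays, with bright spots taken from a second scan. The authors' deposited log2 values were recomputed from the total gene signal to within 2.05e-06; they carry no scaling between arrays. The authors' deposited comparison tables hold an uncorrected p-value per miRNA, per the file headers. Files of the same kind give a detection flag per spot.

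Flagged spots were dropped (153 to 294 per array) and spots averaged per probe. Each array was divided by the 75th percentile of its 254 probes that all arrays measured above background, then floored at 19.72 and log2-transformed. The brightest probe stood for a miRNA. A miRNA entered the fit if any group had it well above background on 3 or more of its 5 arrays: 165 were tested and 185, rno-miR-206 among them, were not. Arrays were compared by a reduced chi-square against the stated error; arrays simulated from that error alone gave 0.761 to 1.35, and the limit of 1 was a choice. Groups came from the labels. Contrasts were fitted with limma 3.58.1 (R 4.3.3), all two-sided, p-values being adjusted by Benjamini-Hochberg over all tested miRNAs at 0.05, over 10 distinct samples; the fit was tested on simulated data. Ratios and plots were made in Python 3.11.15 (numpy 2.4.6, matplotlib 3.10.9, pandas 2.3.3). Alternatives covered array pairing, scaling, background correction, probe choice, filter, slide, replicate block and each sample left out.

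The members and lists were chosen with earlier results of these data known. By rule, the text names the 4 members, rno-miR-208 and rno-miR-499, the 3 miRNAs most like each tested member, miRNAs sharing a seed, and markers a result turns on; rno-miR-1* was added later.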

Additional observations from a re-analysis of the deposited data

Results flagged for a closer look

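Among the 4 distinct Veh hearts, the within-sample log2 ratio of rno-miR-133b over rno-miR-1 had 1 sample far from the others: Veh 1 and 3 stood at 0.18, while Veh 2, Veh 4 and Veh 5 had 0.37, 0.35 and 0.38. The gap was 0.845 of the group's range, above Dixon's critical value for 4 samples. The value of 0.18 averages 2 arrays that did not give the same ratio. On Veh 1 (slide 1) rno-miR-133b and rno-miR-1 had 16.157 and 16.098, and on Veh 3 (slide 2) they had 16.313 and 16.011. The low ratio was thus mainly that of the Veh 1 array. Of 8 measures examined in this way 1 stood out, and chance gives about 1 in 20. The highest Veh value of rno-miR-133a, Veh 4, came near with a gap of 0.789 of the range. Groups of 3 were not examined.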

How the results depend on the processing

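With no scaling between arrays and with the authors' deposited values, the GF minus Veh difference turned to 0.18 and 0.181 for rno-miR-1 and to 0.002 and 0.004 for rno-miR-133b, and GF minus DM turned to 0.443 and 0.437 for rno-miR-1 and to 0.31 and 0.32 for rno-miR-133b. Scaled to hur control spots, DM minus Veh of rno-miR-1 was 0.009 and GF minus DM of rno-miR-133a −0.121. Quantile normalization gave 0 for rno-miR-1 and rno-miR-133b in every contrast, since their brightest probes held the same rank of 938 on all arrays (2 and 1). Other reversals were in GF minus DM, where the main values are near 0. For rno-miR-1 they were 0.118 (75th percentile over all probes), 0.041 (normexp), 0.041 (total gene signal) and 0.009 (slide 1), and from −0.041 to 0.042 with 1 sample left out. For rno-miR-133a they were −0.018 (15 arrays), −0.008 (further close pairs merged), −0.074 (mean of all probes), −0.049 (slide as a block), −0.034 (slide 1), −0.043 (slide 2), −0.157 (dimmer probe), and, both chosen after seeing the data, −0.023 (slide difference of the pairs taken out) and −0.05 (without Veh 5 and DM 1), and from −0.05 to 0.075 with 1 sample left out. The log2 ratio of rno-miR-133a over rno-miR-1 in GF minus DM was −0.003 (15 arrays), −0.06 (mean of all probes) and −0.035 (normexp), and from −0.029 to 0.099 with 1 sample left out; that of rno-miR-133a over rno-miR-133b in GF minus Veh ran from −0.059 to 0.035 with 1 sample left out, and was −0.112 with the mean of all probes. The cause of the other reversals was not tested.

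In GF minus Veh the miR-133 pair passed over 15 arrays (−0.326 for rno-miR-133a and −0.32 for rno-miR-133b), with slide as a block (−0.326 and −0.32) and with the replicate block (−0.336 and −0.309). With the replicate block GF minus DM of rno-miR-133a was −0.028, and 50 miRNAs passed in GF minus Veh, 4 in DM minus Veh and 1 in GF minus DM. Whether the numbers pair the samples cannot be told. Of 13 correlations between same-numbered arrays, from −0.53 to 0.47, 6 were over 0.1. All those between GF and Veh were among these (0.15 to 0.47), and same-numbered GF and Veh arrays also shared a slide. Same-numbered GF and DM arrays shared a slide too, with correlations of −0.53 to 0.06. The part of the slide in these correlations was not tested. The column names of the authors' deposited values number some GF samples otherwise than the labels do.

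Of all miRNAs, the 13 that passed in GF minus Veh became 60 (15 arrays), 57 (slide as a block), 31 (without Veh 5 and DM 1), 21 (mean of all probes), 2 (hur control spots), 2 (deposited values) and 0 (further pairs merged, no filter, slide 1 or slide 2), and 0 to 28 with 1 sample left out. In DM minus Veh none became 3 (15 arrays), 3 (slide as a block), 2 (slide 2) and 2 (without Veh 5 and DM 1), and 0 to 2 with 1 sample left out; in GF minus DM none became 6 (15 arrays), 5 (slide as a block), 1 (no scaling) and 1 (normexp), and 0 to 6. The cause was not tested, beyond fewer samples in the merged and single-slide fits. Normexp used the median signal, since no mean signal was given in the files.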
